A study of Mus musculus with 23 samples.

Results

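A set of 8 G protein-coupled receptors that read lipid gradients in lymphoid tissue was followed through mouse spleen B cells in which Irf8 had been targeted. They are the sphingosine-1-phosphate (S1P) receptors S1pr1, S1pr2, S1pr3 and S1pr4, the lysophosphatidylserine receptors Gpr34, Gpr174 and P2ry10, and the oxysterol receptor Gpr183. The 8 genes were taken by symbol, as receptors for these ligands, out of 11944 genes analysed in all. They were chosen with earlier results of these data known. All 8 were found in the naive cell data and 7 in the cultured cell data, where Gpr34 was not analysed.

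S1P is abundant in blood and lymph and scarce inside lymphoid tissue, and lymphocytes follow that gradient when they leave the tissue or settle beside the blood sinuses. In the spleen, S1P receptors hold marginal zone B cells at the blood-facing edge of the follicle, whereas the oxysterol receptor draws activated B cells to the outer follicle and between follicles. Lysophosphatidylserine receptors are found on many immune cells and signal through several classes of G protein. IRF8, named after the interferon regulatory factors, binds DNA together with ETS-family partners in B cells.

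RNA with a polyA tail from sorted spleen B cells was sequenced in 23 libraries of 8 groups, after SMART-seq v4 amplification. In KO cells, positive for Thy1.1 in the sort, 1 of 2 guide RNAs against Irf8 was present, and WT cells were negative for Thy1.1 and had no guide. How guides were delivered is not given in the sources used here. Every group was also sorted as negative for CD11b, F4/80 and Thy1.2. Naive B cells were untreated, B220-positive cells: KO with guide 1, KO with guide 2, and a WT group sorted beside each guide, with 3 libraries (A, B and C) in each group. Activated B cells (B220-positive, GL7-positive, CD138-negative) and plasmablasts (B220-positive or intermediate, CD138-positive, with a cell type label of plasma cell) came from a culture of 72 hours, in which IL-2 was at 20 ng/ml, IL-5 was at 5 ng/ml and LPS was at a labelled 20 mg/ml. Cultured KO cells carried guide 1. There were 3 KO and 3 WT activated libraries, and 3 KO and 2 WT plasmablast libraries. No group had a control guide, so the loss of Irf8 cannot be told apart from carrying a guide and the Thy1.1 sort. Mouse strain and age are not given in the sources used here, and the labels do not say which libraries share an animal, so p-values measure the spread between these libraries.

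Reads assigned to genes, estimated from the steps of the lowest values, ran from 14500000 to 22200000 per naive library and from 4320000 to 26900000 per cultured library, apart from plasmablast KO library 3 with 51300. Irf8 itself had 47.6 to 77.7 RPKM (reads per kilobase of gene, scaled to the reads of the library) in the 6 naive KO libraries and 79.8 to 98 RPKM in the 6 naive WT libraries. In plasmablasts Irf8 did not separate the genotypes, with 17.5 to 24.2 RPKM in KO and 17.6 to 24.6 RPKM in WT libraries. Activated libraries had 68.1 to 92.4 RPKM when labelled KO and 60 to 108 RPKM when labelled WT. Without the activated libraries 3 these ranges were 68.1 to 69.2 and 93.6 to 108 RPKM. Thy1 had 8.88 to 22.1 RPKM in naive KO libraries and at most 0.052 RPKM in 5 of the naive WT libraries, against 4.93 RPKM in naive WT guide 1 library A. Naive KO guide 1 library A had 1405 genes at 0, against 66 to 291 in the other naive libraries. Activated libraries 3 went against their labels: the library labelled KO had Thy1 at 0.093 and Irf8 at 92.4 RPKM, and the library labelled WT had Thy1 at 25.7 and Irf8 at 60 RPKM. Results are therefore also given without these 5 libraries, 2 of them naive and 3 cultured. All 7 B cell markers were detected, with sums of 2906 to 3721 RPKM in naive KO libraries and 3002 to 3464 RPKM in naive WT libraries. None of the 8 T cell, 6 neutrophil or 4 platelet markers was among the genes analysed.

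Promoter windows from RefSeq (GRCm38.p6, the assembly called mm10), 250 bases before to 50 after the start, were available for 6 of the 8 receptors. The windows of S1pr3 and S1pr4 are shown because these receptors moved in opposite directions in naive KO cells, and that of Gpr183 because it had the largest difference between plasmablasts and activated B cells when all libraries were used. They lie at chr13:51408368-51408667 on the plus strand, chr10:81500088-81500387 on the minus strand and chr14:121965144-121965443 on the minus strand, in that order. Capitals mark matches to any of 5 motifs on either strand.
S1pr3: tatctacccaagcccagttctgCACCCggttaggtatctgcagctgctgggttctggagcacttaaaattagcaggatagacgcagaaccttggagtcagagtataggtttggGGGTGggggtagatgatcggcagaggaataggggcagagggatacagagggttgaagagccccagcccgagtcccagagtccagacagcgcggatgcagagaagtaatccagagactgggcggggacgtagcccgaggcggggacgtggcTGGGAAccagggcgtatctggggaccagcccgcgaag
S1pr4: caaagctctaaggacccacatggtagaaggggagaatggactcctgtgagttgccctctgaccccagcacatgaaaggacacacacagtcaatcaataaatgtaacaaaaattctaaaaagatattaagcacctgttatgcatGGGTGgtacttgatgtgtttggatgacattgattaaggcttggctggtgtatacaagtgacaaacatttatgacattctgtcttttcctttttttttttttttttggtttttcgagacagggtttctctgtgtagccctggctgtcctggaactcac
Gpr183: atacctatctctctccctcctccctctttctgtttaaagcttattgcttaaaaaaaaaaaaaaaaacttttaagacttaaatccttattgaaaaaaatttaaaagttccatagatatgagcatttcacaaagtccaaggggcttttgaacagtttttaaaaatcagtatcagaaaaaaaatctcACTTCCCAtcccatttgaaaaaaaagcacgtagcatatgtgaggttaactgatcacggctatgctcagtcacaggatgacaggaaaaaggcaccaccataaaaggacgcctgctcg

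The motifs were the composite IRF-ETS site GGAANNGAA, the interferon response core GAAANNGAA, the ETS core GGAAGT, the RBPJ site TGGGAA and the KLF site GGGTG. No window of the 6 receptors held the IRF-ETS or the interferon response letters, which 8.24% and 8.56% of all 32851 RefSeq windows of the same length hold. The KLF letters occurred at 2 places in the S1pr3 window, 228 and 137 bases before the start, and at 1 place in those of S1pr4, S1pr2 and Gpr174. That is the commonest of the 5 motifs, found in 57.5% of all windows. The RBPJ letters, in 25.6% of all windows, occurred in the S1pr3 window 13 bases past the start, and in the Gpr183 window they overlap an ETS core, a motif of 23.8% of all windows. Such matches describe letters in these windows and say nothing about the binding of a factor.

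Naive B cells held 7 of the 8 receptors above the low-value limit (1 RPKM in at least 2 libraries), and S1pr2 below it. In naive KO cells S1pr3 and Gpr34 were higher and S1pr4 was lower than in naive WT cells, while S1pr1, Gpr183, Gpr174 and P2ry10 did not pass the test. Thus 3 of the 7 tested receptors were called at an adjusted p under 0.05, 2 higher and 1 lower, where 1.88% of all 10137 genes tested in this comparison were called, 1.03% higher and 0.858% lower. The median difference of the 7 receptors was 0.00 on the log2(RPKM + 1) scale, against -0.02 for all genes tested. Differences below are KO minus WT on that scale, averaged over both guides unless a guide is named, with standard error (SE) and limma's moderated test adjusted by Benjamini-Hochberg over all genes tested. Adding 1 makes the difference of a gene near or below 1 RPKM smaller than its ratio. In bulk RNA, fewer cells of a type and less RNA per cell cannot be told apart.

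**Figure D1:**
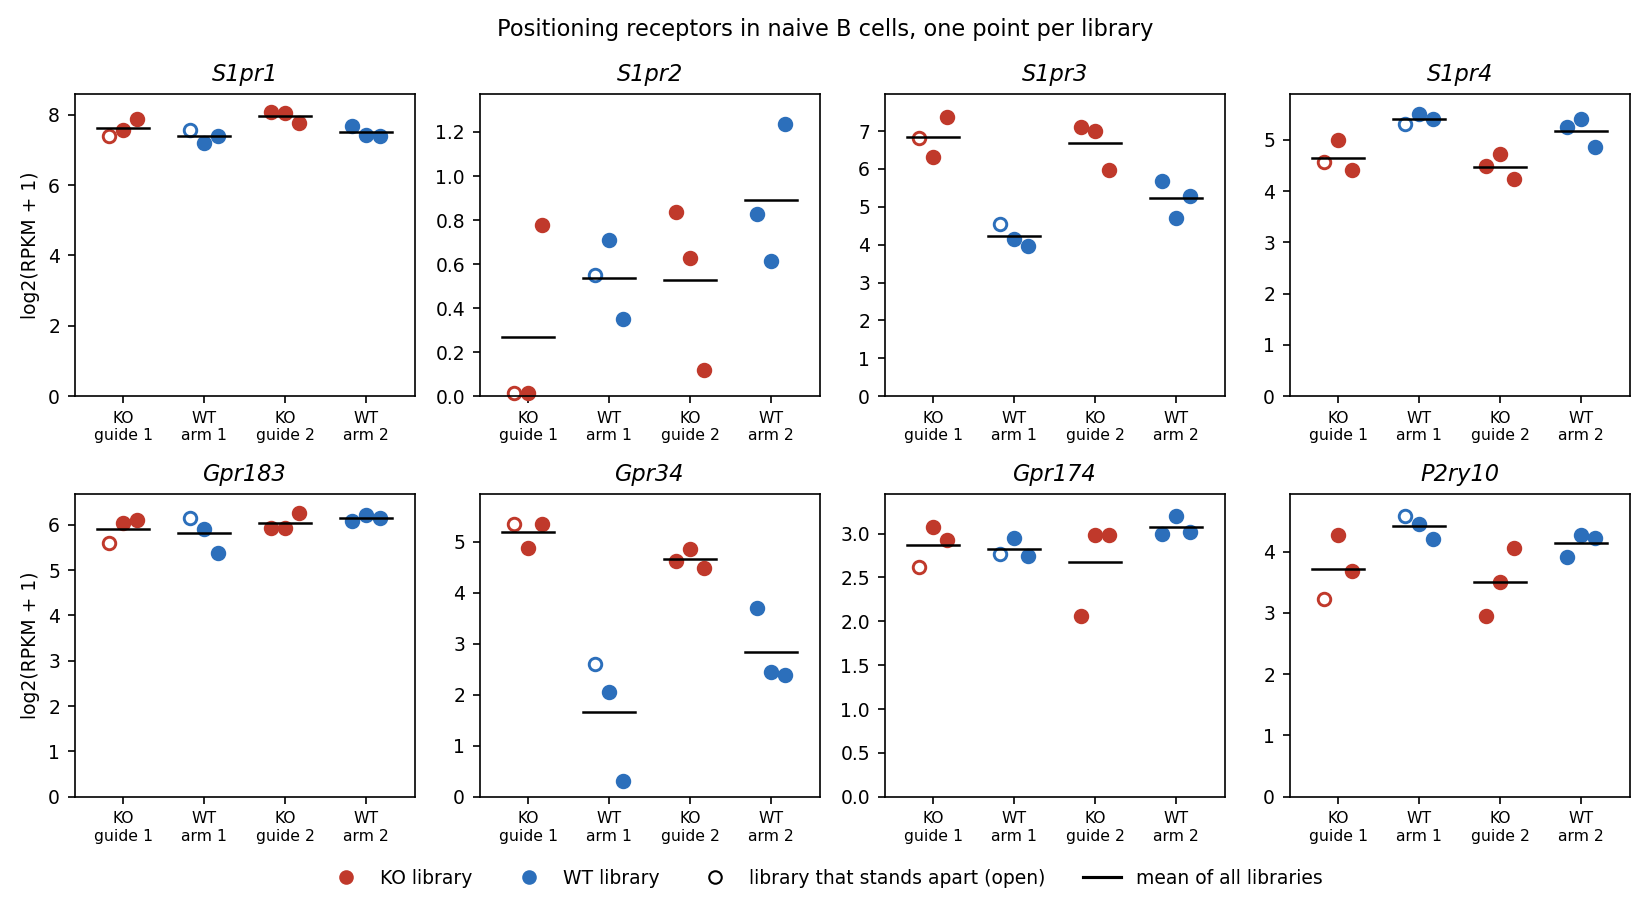
Level of each receptor in each naive library on the log2(RPKM + 1) scale (vertical axis, scaled per receptor) for KO and WT of the guide 1 arm and of the guide 2 arm; bars are means of 3 libraries, and open points are the libraries that stand apart. S1pr3 and Gpr34 lie above every WT library in all 6 KO libraries, and S1pr4 lies lower in KO within each arm.

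S1pr3, an S1P receptor of marginal zone B cells and of endothelium, lies on chromosome 13 from 51408618 to 51422797. With guide 1 it had 112, 78.3 and 164 RPKM in KO libraries A, B and C and 22.4, 16.7 and 14.7 RPKM in WT libraries. With guide 2 it had 138, 127 and 61.8 RPKM in KO libraries and 49.9, 25.1 and 38.0 RPKM in WT libraries. Every KO library was above every WT library, and the lowest KO value exceeded the highest WT value even across arms. S1pr3 rose by 2.04 (SE 0.24, adjusted p = 0.00313), with a mean of 114 ± 38.2 RPKM in KO cells and 27.8 ± 13.6 RPKM in WT cells (SD, n = 6 each). A long noncoding RNA on the opposite strand, Gm32834, shares 45 of the 4463 exonic bases of S1pr3, and whether counting used strand is not given in the sources used here.

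Gpr34, on the X chromosome from 13622650 to 13640859, couples lysophosphatidylserine to inhibitory G proteins and is best known from microglia and mast cells. Its guide 1 values were 39.6, 28.4 and 39.8 RPKM in KO libraries and 5.07, 3.16 and 0.246 RPKM in WT libraries. Its guide 2 values were 23.5, 28.2 and 21.5 RPKM in KO libraries and 12, 4.45 and 4.26 RPKM in WT libraries. KO and WT libraries did not overlap, and WT guide 1 library C stood below all others, at an estimated 19 reads. Gpr34 rose by 2.67 (SE 0.34, adjusted p = 0.00412), with a mean of 30.2 ± 7.85 RPKM in KO cells and 4.87 ± 3.90 RPKM in WT cells (SD, n = 6 each).

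S1pr4, an S1P receptor largely restricted to blood cells, lies on chromosome 10 from 81497745 to 81500137. In the guide 1 arm it had 22.6, 30.8 and 20.3 RPKM in KO libraries and 38.7, 44.4 and 41.1 RPKM in WT libraries. In the guide 2 arm it had 21.4, 25.4 and 17.7 RPKM in KO libraries and 37.1, 41.7 and 27.9 RPKM in WT libraries. Within each arm all KO libraries were below all WT libraries, but KO guide 1 library B was above WT guide 2 library C, so the pooled groups overlapped. In the guide 2 arm, 6.44% of all genes had every KO library below every WT library. S1pr4 fell by 0.72 (SE 0.13, adjusted p = 0.0168). This call was lost by a small margin without KO guide 2 library A, WT guide 1 library B, WT guide 1 library C or WT guide 2 library B, at adjusted p from 0.0532 to 0.06, with differences from -0.66 to -0.72.

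S1pr1, the receptor for egress from lymphoid tissue, on chromosome 3 from 115710433 to 115715055, was the most abundant of the 8 in naive cells. It had 168, 187 and 235 RPKM in KO guide 1 libraries and 189, 144 and 166 RPKM in their WT libraries. It had 268, 263 and 217 RPKM in KO guide 2 libraries and 204, 171 and 166 RPKM in their WT libraries. Guide 2 KO libraries were all above their WT libraries, and guide 1 libraries overlapped through WT library A, which was above KO libraries A and B. The difference of 0.35 (SE 0.11) did not pass the test (adjusted p = 0.15, 95% interval 0.12 to 0.58). Without naive KO guide 1 library A alone it was called at 0.40 (adjusted p = 0.0386), where 3.84% of all genes were called. Without that library and WT guide 1 library A, the naive libraries that stand apart, S1pr1 was called higher by 0.45 (SE 0.10, adjusted p = 0.0315), and 3.36% of all genes were called.

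Gpr183, also known as EBI2, the receptor for the oxysterol 7-alpha,25-dihydroxycholesterol, ranked above 94.9% to 96.5% of genes in the naive groups. It had 47.6 to 75.4 RPKM in the 6 KO libraries (median 62.5) and 40.4 to 72.7 RPKM in the 6 WT libraries (median 68.6). The groups overlapped almost wholly, and the difference was 0.00 (SE 0.14, adjusted p = 0.996, 95% interval -0.30 to 0.29). Without the naive libraries that stand apart it was 0.16 over both guides (adjusted p = 0.5, 95% interval -0.08 to 0.40). In the guide 1 arm it was then 0.43 (adjusted p = 0.202, 95% interval 0.06 to 0.80), against 0.10 with all libraries.

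P2ry10 and Gpr174 are neighbours on the X chromosome, from 107088492 to 107104974 and from 107255878 to 107296771, with the related gene P2ry10b between them. P2ry10 had 6.69 to 18.3 RPKM in KO libraries (median 11.1) and 14.1 to 22.9 RPKM in WT libraries (median 18.0). Most KO libraries lay below the WT range, but KO guide 1 library B and KO guide 2 library C lay inside it. Its difference of -0.66 (SE 0.20) did not pass the test (adjusted p = 0.162), except without KO guide 1 library B, where it was -0.80 (adjusted p = 0.0403) and 3.81% of all genes were called. P2ry10b, a close relative whose reads may in part be shared with P2ry10, had a difference of -0.69 (SE 0.33, adjusted p = 0.414). KO guide 1 library A, which stands apart, had 0.204 RPKM of P2ry10b. The other KO libraries had 4.49 to 6.31 RPKM and the WT libraries 6.29 to 8.75 RPKM. Gpr174, known to restrain regulatory T cells, had 3.18 to 7.40 RPKM in KO libraries (median 6.75) and 5.69 to 8.19 RPKM in WT libraries (median 6.85). Its groups overlapped and its difference was -0.17 (SE 0.17, adjusted p = 0.71, 95% interval -0.55 to 0.20).

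S1pr2, the receptor that confines germinal centre B cells, on chromosome 9 from 20965952 to 20976793, was near the detection limit in naive cells. In KO cells it had 0.010, 0.009 and 0.713 RPKM with guide 1 and 0.784, 0.543 and 0.087 RPKM with guide 2, where 0.010 and 0.009 RPKM stand for 1 read each. In WT cells it had 0.463, 0.637 and 0.275 RPKM in the guide 1 arm and 0.777, 0.531 and 1.35 RPKM in the guide 2 arm. KO and WT libraries overlapped, and 1 of the 12 libraries reached 1 RPKM, so S1pr2 was not tested.

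The S1pr3 and Gpr34 differences were larger in the guide 1 arm than in the guide 2 arm, without a call of that contrast. With guide 1 alone, S1pr3 was higher by 2.61 (SE 0.34) and Gpr34 by 3.53 (SE 0.49), both with an adjusted p of 0.0115, where 1.11% of all genes were called and 0.592% were called higher. Both calls were lost without WT guide 1 library C, which held the lowest Gpr34 value (adjusted p = 0.0692 for S1pr3 and 0.0512 for Gpr34), and when the 2 groups were fitted alone (adjusted p = 0.0842 and 0.161). With guide 2 alone, limma called none of the 7 receptors and 0.0296% of all genes. At an unadjusted p under 0.05, 5 of the 7 receptors passed with guide 2, as did 4.2% of all genes. In that arm S1pr3 was higher by 1.48 (SE 0.34, adjusted p = 0.37), Gpr34 by 1.81 (SE 0.49, adjusted p = 0.545) and S1pr1 by 0.47 (SE 0.15, adjusted p = 0.827), with all 3 KO libraries above all 3 WT libraries for each, as for 7.33% of all genes. Fitted on the guide 2 groups alone, S1pr3 and Gpr34 were called (adjusted p = 0.0424 and 0.0146), where 0.563% of all genes were.

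The difference between the guides, guide 1 minus guide 2, was 1.13 for S1pr3 (95% interval 0.09 to 2.17) and 1.72 for Gpr34 (0.23 to 3.22), with an adjusted p of 0.918 for each. Limma called no gene in this contrast, 0% of those tested, while 479 genes and 2 of the 7 receptors had an unadjusted p under 0.05. Between the WT groups of the arms, S1pr3 had lower values in the guide 1 arm, with all 3 of its WT libraries below those of the guide 2 arm, but without a call (difference -1.0, SE 0.34, adjusted p = 0.999). For Gpr34 the difference between WT arms was -1.19 (SE 0.49, adjusted p = 0.999), and those libraries overlapped. In that contrast 0.0493% of all genes were called. For S1pr4 the guides' differences were -0.05 apart (95% interval -0.63 to 0.52), at -0.75 with guide 1 (SE 0.19, adjusted p = 0.0787) and -0.70 with guide 2 (SE 0.19, adjusted p = 0.545). The guide 1 difference was called without KO guide 1 library B (-0.92, adjusted p = 0.0241), where 3.68% of all genes were called.

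**Figure D2:**
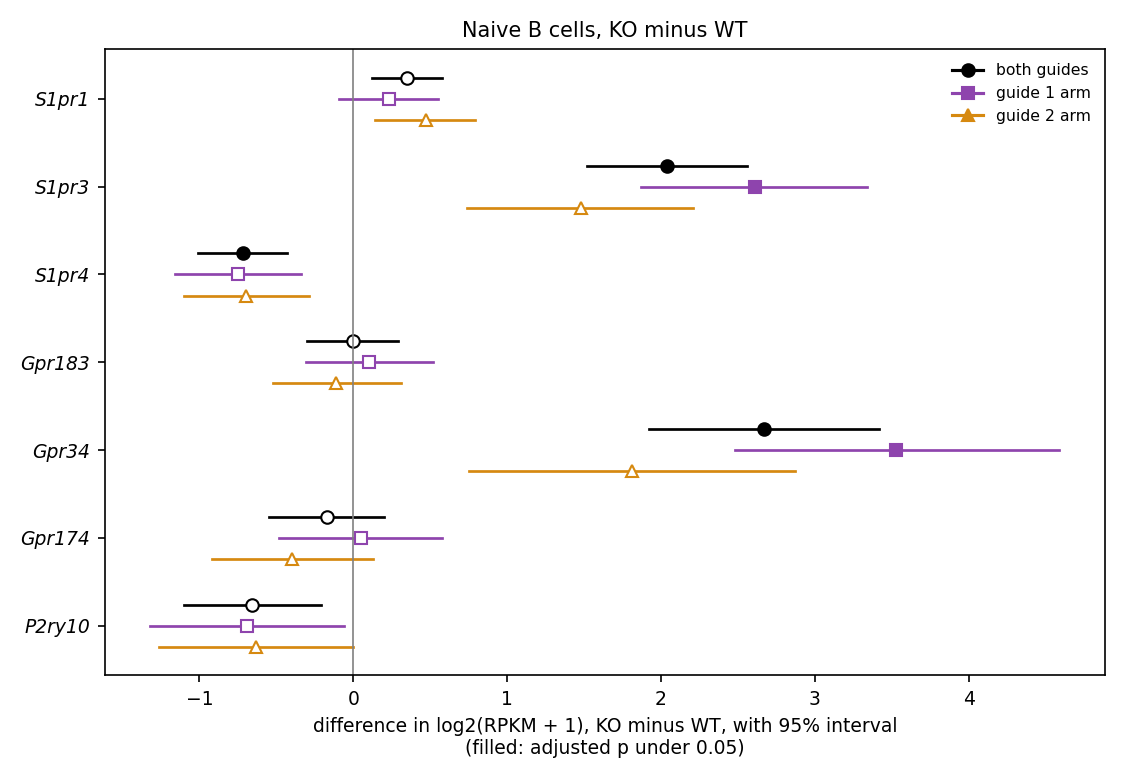
Difference in log2(RPKM + 1), KO minus WT, in naive B cells (horizontal axis) with its 95% interval for each tested receptor, over both guides and for each guide arm; filled symbols have an adjusted p under 0.05. Gpr34 and S1pr3 lie farthest to the right, at 2.67 and 2.04 over both guides, S1pr4 lies left of 0 at -0.72, and Gpr183 lies at 0.00.

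Markers of B cell subsets moved alongside these receptors. The 7 marginal zone markers (Cr2, Cd1d1, Cd9, Dtx1, Mzb1, Myof and Fcrl5), all detected, summed to 471 to 862 RPKM in KO guide 1 and 491 to 814 RPKM in KO guide 2 libraries, against 238 to 345 and 335 to 465 RPKM in their WT groups. Both KO groups lay above both WT groups in that sum. Cr2, the complement receptor abundant on marginal zone B cells, had 187 to 285 and 220 to 242 RPKM in the KO groups, against 57.4 to 110 and 120 to 157 RPKM in their WT groups. Fcer2a, the IgE receptor abundant on follicular B cells, had 90.9 to 260 and 167 to 238 RPKM in the KO groups, against 283 to 450 and 346 to 386 RPKM in their WT groups. All KO libraries were below all WT libraries in Fcer2a. Cd55, also a follicular marker, had 92.7 to 207 and 84.4 to 163 RPKM in the KO groups, against 154 to 213 and 142 to 176 RPKM in their WT groups, and overlapped in both arms. The part of subset composition in the receptor differences was not tested.

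Gpr34 is also a macrophage gene, and 9 of 13 macrophage and monocyte markers were detected in naive cells. Their sum was 8.33 to 38.4 and 10.4 to 13.3 RPKM in KO groups, against 12.5 to 24.7 and 9.49 to 20.2 RPKM in their WT groups. These ranges overlapped in both arms, and the highest sum belonged to KO guide 1, where C1qa reached 13.3 RPKM in 1 library. Csf1r, which defines macrophages, was at most 0.553 RPKM in KO libraries and 1.35 RPKM in WT libraries, and was at 0 in at least 1 library of each KO group. The Gpr34 difference was 2.87 (SE 0.32, adjusted p = 0.000497) and the S1pr3 difference 2.13 (SE 0.25, adjusted p = 0.000965) without the libraries that stand apart. Stromal and endothelial markers, 3 of 6 detected, summed to 41.3 to 45.8 and 41.5 to 60.4 RPKM in KO groups, against 38.6 to 44.7 and 49.2 to 55.0 RPKM in their WT groups. Those ranges overlapped as well, and their part in the S1pr3 difference was not tested.

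Genes around the receptors changed in part. Counts of called genes from the lists below, over both guides, stand beside 1.88% of all genes called, 1.03% higher and 0.858% lower. The lists were chosen with earlier results of these data known. Among the S1P metabolism and transport genes (17 in the list, 10 tested) none was called, and the median difference was -0.11. Of these, the lipid phosphatases Plpp3 and Plpp2 had the largest differences, 0.96 (SE 0.26, adjusted p = 0.0964) and -0.92 (SE 0.24, adjusted p = 0.0773). Among the oxysterol genes, 1 of 5 tested was called: Cyp27a1, a mitochondrial sterol 27-hydroxylase, fell by 2.26 (SE 0.50, adjusted p = 0.0387), with 0 to 13.3 RPKM in KO libraries and 11.7 to 24.7 RPKM in WT libraries, ranges that overlapped. Among the lysophospholipid enzymes, 2 of 8 tested were called, both higher. Lpcat2, a lysophosphatidylcholine acyltransferase, rose by 1.51 (SE 0.20, adjusted p = 0.00412), with 13.4 to 29.9 RPKM in KO libraries and 3.62 to 9.31 RPKM in WT libraries. Pla2g7, the phospholipase that inactivates platelet-activating factor, rose by 1.79 (SE 0.33, adjusted p = 0.0166), with 4.95 to 17 RPKM in KO libraries and 0.576 to 4.90 RPKM in WT libraries.

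Downstream of the receptors, none of the 16 tested G protein, exchange factor and GTPase genes was called in naive cells, and their median difference was -0.05. In the list of RGS proteins, receptor kinases and arrestins, 1 of 12 tested rose and 1 fell. Rgs10, which speeds the shut-off of inhibitory G proteins, rose by 1.62 (SE 0.32, adjusted p = 0.0229), and Rgs2 fell by 0.80 (SE 0.18, adjusted p = 0.0487). Rgs10 had 4.2 to 17.1 RPKM in KO and 0.325 to 3.21 RPKM in WT libraries. Rgs2 had 11.8 to 27.4 RPKM in KO and 22.5 to 57 RPKM in WT libraries, ranges that overlapped. Klf2, the transcription factor known to drive S1pr1 in lymphocytes, was called among the regulators of S1pr1. It fell by 0.62 (SE 0.13, adjusted p = 0.0341), with 146 to 266 RPKM in KO libraries and 257 to 330 RPKM in WT libraries, ranges that overlapped. In the same cells S1pr1 had the difference of 0.35 given above. Of 12 other lipid receptors tested, 1 was called, the short-chain fatty acid receptor Ffar2, higher by 1.5 (SE 0.29, adjusted p = 0.0238). Its ranges overlapped, at 1.95 to 7.67 RPKM in KO and 0.021 to 2.95 RPKM in WT libraries. Of 12 chemokine receptor and adhesion genes tested, 1 was called, the scavenging receptor Ackr3, higher by 2.03 (SE 0.38, adjusted p = 0.0178). Ackr3 ranges overlapped too, at 6.91 to 35.5 RPKM in KO and 1.26 to 8.67 RPKM in WT libraries. The homing receptor Cxcr4 had -1.23 (SE 0.30, adjusted p = 0.0658). With guide 1 alone, Pla2g7, Lpcat2, Rgs10, Ffar2 and Ackr3 were again called higher and Rgs2 lower, where 1.11% of all genes were called. In that arm Lpar6, a lysophosphatidic acid receptor, was also called, higher by 0.92 (SE 0.19, adjusted p = 0.0392), with 10.1 to 11.7 RPKM in KO libraries and 3.77 to 6.58 RPKM in WT libraries.

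Across the 12 naive libraries, the genes most like S1pr3 by Pearson's r of log2(RPKM + 1) were Pik3r4 (r = 0.986), Tm6sf1 (0.974) and Utrn (0.972). Those most like Gpr34 were Dglucy (r = 0.972), S1pr3 itself (0.935) and I830077J02Rik (0.930). For S1pr4 they were Gm8369 (r = 0.973), Tent5a (0.967) and Scpep1 (0.919), and S1pr4 ran against S1pr3 (r = -0.833). P2ry10 ran with Capn5 (r = 0.936) and Cd55os (0.932), and it too ran against S1pr3 (r = -0.805). S1pr1 was most like Fkbp5 (r = 0.959), Gpr183 most like Ralgapa2 (0.945) and Gpr174 most like Elf1 (0.912). These are descriptions over libraries that share 4 groups, so a group difference enters every r.

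After culture the receptors stood at lower levels, apart from S1pr2. Naive and cultured values were normalized separately, so levels are set side by side without a test. S1pr1 averaged 196 and 249 RPKM in the naive KO groups and 167 and 180 RPKM in the naive WT groups, against 34.2 and 31.5 RPKM in activated KO and WT cells and 17.1 and 22.8 RPKM in KO and WT plasmablasts. S1pr3 averaged 118 and 109 RPKM in naive KO groups and 17.9 and 37.7 RPKM in naive WT groups, and 5.04 RPKM or less in every cultured group. For S1pr1, S1pr3, S1pr4, Gpr183 and Gpr174 every cultured library was below every naive library, whereas P2ry10 ranges of naive KO guide 2 and activated KO cells overlapped. S1pr2 ran the other way in order, from 0.244 to 0.888 RPKM in naive groups and from 1.49 to 1.91 RPKM in cultured groups, with ranges of neighbouring groups overlapping throughout. Within a culture stage, the KO and WT groups of every receptor overlapped when all libraries were used, apart from Gpr174 in plasmablasts.

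**Figure D3:**
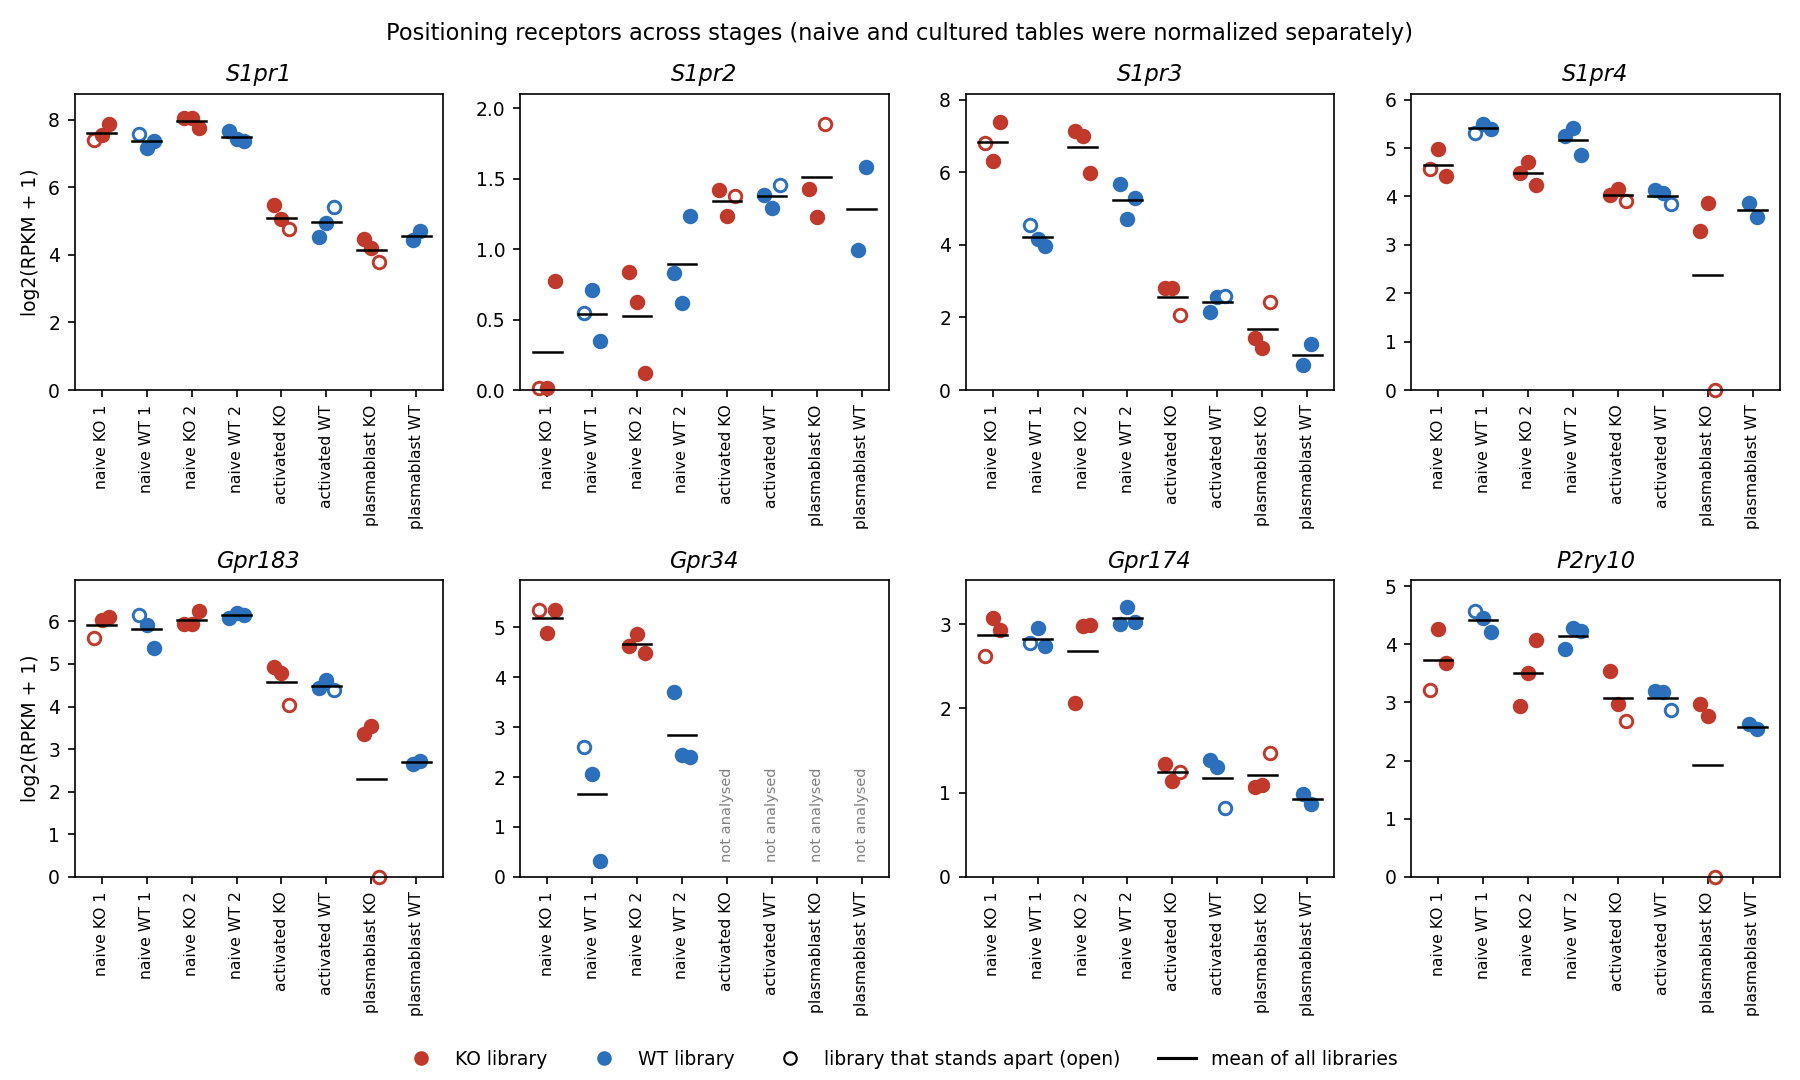
Level of each receptor in each library of the 8 groups on the log2(RPKM + 1) scale (vertical axis, scaled per receptor), in the order naive, activated, plasmablast with KO left of WT; bars are group means and open points are the libraries that stand apart. Group means are lower in cultured than in naive cells for all receptors but S1pr2 (Gpr34 was not analysed in cultured cells), and plasmablast KO library 3 lies at 0 for S1pr4, Gpr183 and P2ry10.

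In activated B cells no receptor passed the test between KO and WT. Limma called none of the 7 tested receptors and 0% of the 9986 genes tested, and at an unadjusted p under 0.05 none of the 7 receptors and 2 genes passed. S1pr1 had 43.8, 32.3 and 26.5 RPKM in the libraries labelled KO and 22.3, 30.0 and 42.2 RPKM in the libraries labelled WT. Gpr183 had 29.5, 26.5 and 15.4 RPKM in the libraries labelled KO and 20.5, 23.6 and 19.9 RPKM in the libraries labelled WT. The library labelled KO 3, which goes against its label, was the lowest of the KO values for both genes, and the library labelled WT 3 was the highest WT value for S1pr1 and the lowest for Gpr183. Differences of the 7 receptors ran from -0.04 for S1pr2 to 0.13 for S1pr1 and S1pr3, with an adjusted p of 1 for each.

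Without the 3 cultured libraries that stand apart, the KO minus WT difference in activated cells was 0.52 for S1pr1 (SE 0.17, adjusted p = 0.202), 0.45 for S1pr3 (SE 0.21, adjusted p = 0.428) and 0.33 for Gpr183 (SE 0.13, adjusted p = 0.289). Both KO libraries then lay above both WT libraries for these 3 receptors, as they did for 23.9% of all genes. None of the 7 was called, where 0.71% of all genes were. The intervals were 0.16 to 0.89 for S1pr1, -0.01 to 0.90 for S1pr3 and 0.06 to 0.60 for Gpr183.

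In plasmablasts, likewise, limma called no receptor between KO and WT, and 0% of all genes. At an unadjusted p under 0.05, none of the 7 receptors and 85 genes passed. S1pr3 had 1.70, 1.22 and 4.37 RPKM in KO libraries and 0.608 and 1.4 RPKM in WT libraries, where 4.37 RPKM is 1 read in the library of 51300 reads. Gpr183 had 9.23, 10.7 and 0 RPKM in KO libraries and 5.27 and 5.62 RPKM in WT libraries. KO libraries 1 and 2 stood above both WT libraries. The share of all genes that did so was not computed in plasmablasts, and between 2 KO and 2 WT activated libraries it was 23.9%. KO library 3, with few reads, was listed at 0 for Gpr183, a count that allows up to 3 reads or 19 RPKM there. Without the libraries that stand apart, the Gpr183 difference was 0.76 (SE 0.13, 95% interval 0.49 to 1.03) and missed the threshold by a small margin (adjusted p = 0.052), where 0.071% of all genes were called. It turned to -0.39 (SE 0.87, adjusted p = 0.789) with all libraries. P2ry10 and S1pr3 had 0.29 and 0.32 (adjusted p = 0.968 each) and S1pr1 had -0.23 (adjusted p = 0.979) without those libraries.

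Plasmablasts were next set against activated B cells of the same genotype. With all libraries limma called none of the 7 receptors in KO cells, where 3.44% of all genes were called, and none in WT cells, where 1.76% were. At an unadjusted p under 0.05, 3 receptors passed in KO cells, where 21.2% of all genes did, and 1 in WT cells, where 13.7% did. Leaving out plasmablast KO library 3 alone, which also sets the spread of the WT fit, S1pr1, S1pr3 and Gpr183 were called lower in KO cells (adjusted p = 0.0292, 0.00318 and 0.00228) and S1pr3 and Gpr183 in WT cells (adjusted p = 0.00119 and 0.000109). In that fit 30.7% of all genes were called in KO cells and 33.4% in WT cells, so 3 and 2 of the 7 receptors are near the share of all genes. Fitted on the WT groups alone, S1pr3, Gpr183 and P2ry10 were called (adjusted p = 0.00174, 7.72e-05 and 0.0411), where 32.4% of all genes were. With all libraries, median differences of the 7 receptors were -0.96 in KO and -0.41 in WT cells, against -0.22 and -0.12 for all genes tested. Without the 3 cultured libraries that stand apart, the receptor medians were -0.52 in KO and -0.42 in WT cells. These comparisons use the same activated and plasmablast groups as the KO and WT comparisons above.

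Without the 3 libraries that stand apart, 4 receptors were called in each genotype, all lower in plasmablasts. That is to be read against 33.6% of all genes called in KO cells and 46.3% in WT cells. Of all genes, 21.5% were called lower in KO cells and 30.7% in WT cells. Gpr183 had 9.23 and 10.7 RPKM in KO plasmablasts and 29.5 and 26.5 RPKM in activated KO cells, and 5.27 and 5.62 RPKM in WT plasmablasts and 20.5 and 23.6 RPKM in activated WT cells. Plasmablast and activated libraries were apart in both genotypes. Gpr183 fell by 1.4 in KO cells (SE 0.13, adjusted p = 4.38e-06) and by 1.83 in WT cells (SE 0.13, adjusted p = 2.69e-07). S1pr3 fell by 1.51 in KO cells (SE 0.21, adjusted p = 0.000153) and by 1.38 in WT cells (SE 0.21, adjusted p = 0.000175), and its activated libraries had at most 5.97 RPKM.

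S1pr1 had 21.0 and 17.4 RPKM in KO plasmablasts and 43.8 and 32.3 RPKM in activated KO cells, and 20.5 and 25.0 RPKM in WT plasmablasts and 22.3 and 30.0 RPKM in activated WT cells. The KO libraries were apart and the WT libraries overlapped. It fell by 0.94 in KO cells (SE 0.17, adjusted p = 0.00106) and had -0.19 in WT cells (SE 0.17, adjusted p = 0.395). The difference between genotypes was -0.75 (SE 0.24, 95% interval -1.27 to -0.23) and was not called (adjusted p = 0.444), where 0.0304% of all genes were. S1pr4 fell by 0.52 in KO cells (SE 0.17, adjusted p = 0.0317) and had -0.38 in WT cells (SE 0.17, adjusted p = 0.0817). Gpr174 and P2ry10 fell by 0.42 and 0.61 in WT cells (adjusted p = 0.0439 and 0.0126), and had -0.16 and -0.38 in KO cells (adjusted p = 0.468 and 0.114). S1pr2 had 0.00 in KO and -0.05 in WT cells (SE 0.20 each). No receptor was called in the contrast of genotypes, with or without those libraries.

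**Figure D4:**
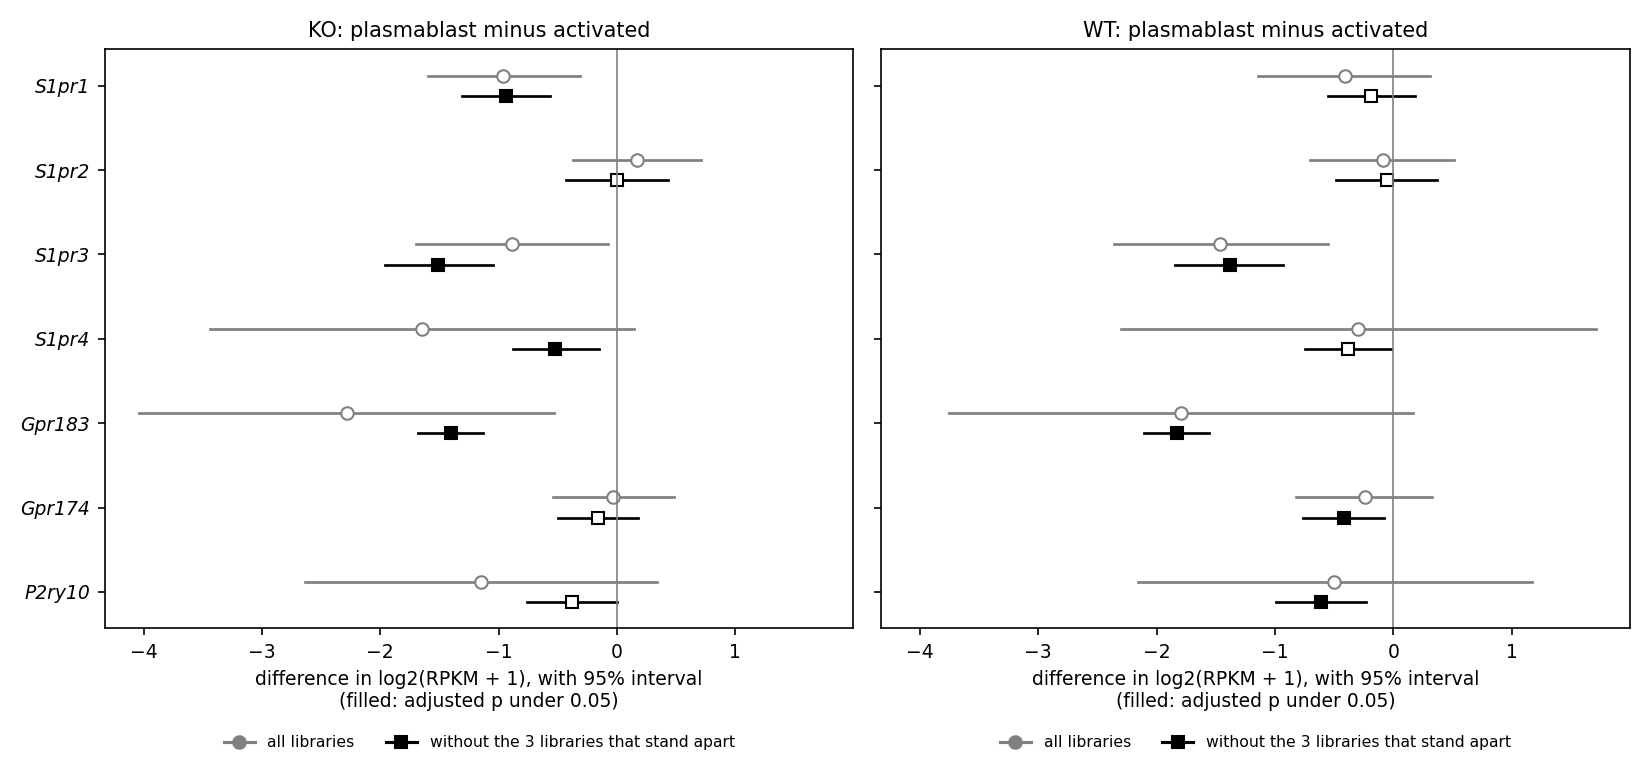
Difference in log2(RPKM + 1), plasmablast minus activated (horizontal axis), with its 95% interval for each receptor in KO cells (left) and WT cells (right), with all libraries and without the 3 that stand apart; filled symbols have an adjusted p under 0.05. Without those libraries Gpr183 lies at -1.4 in KO and -1.83 in WT cells, and intervals are narrower than with all libraries.

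Plasmablast and activated sorts were checked against Sdc1, which encodes the sorted marker CD138. It had 3.03 to 33.3 RPKM in KO plasmablasts and 0.448 to 0.790 RPKM in activated KO cells. In WT cells it had 27.5 to 34.1 RPKM in plasmablasts and 0.226 to 0.473 RPKM in activated cells. The 7 plasmablast markers, Sdc1 among them, summed to 1631 to 2646 RPKM in KO plasmablasts and 1034 to 1438 RPKM in activated KO cells. In WT cells the sums were 2144 to 3781 and 744 to 1978 RPKM. Prdm1, also in that list, did not separate the sorts. It had 27.3 to 79.8 RPKM in KO plasmablasts and 63 to 73.9 RPKM in activated KO cells. In WT cells it had 69.6 to 76.6 and 56.7 to 94.6 RPKM. Some regulators fell in plasmablasts with all libraries in both genotypes. Calls and medians in this paragraph use all libraries, and those of KO cells include plasmablast KO library 3, with 51300 reads. In these fits 3.44% of all genes were called in KO cells and 1.76% in WT cells. Without the 3 libraries that stand apart, those shares were 33.6% and 46.3%. Klf2 had a difference of -3.20 in KO (SE 0.55, adjusted p = 0.0189) and -3.82 in WT cells (SE 0.61, adjusted p = 0.0194). Cd69, which pulls S1pr1 from the cell surface, was called in WT cells at the threshold (difference -1.42, SE 0.30, adjusted p = 0.05 after rounding). In KO cells Cd69 averaged 52.1 RPKM when activated and 22.4 RPKM in plasmablasts, without a call. Limma called 0 genes in the contrast of genotypes (10 at an unadjusted p under 0.05, with none of the receptors among them). Of 10 tested RGS, kinase and arrestin genes, 4 were called in KO and 3 in WT cells, all lower. The median of these 10 was -1.27 in KO and -0.62 in WT cells, against -0.22 and -0.12 for all genes tested. Rgs2 had -1.92 in KO and -1.86 in WT cells, Rgs13 had -2.34 in KO and -1.89 in WT cells, and Rgs18 was called in KO cells (difference -1.48). Without a call in WT cells, Rgs18 averaged 1.36 RPKM in activated WT cells and 0 RPKM in WT plasmablasts. Rgs16 had -3.50 in KO (SE 0.38, adjusted p = 0.00553) and -3.43 in WT cells (SE 0.43, adjusted p = 0.00647). Of 13 chemokine receptor and adhesion genes, 2 were called lower in KO and 1 in WT cells. Ccr7, which draws cells to the T cell zone, had -3.54 in KO (SE 0.45, adjusted p = 0.00713) and -4.91 in WT cells (SE 0.51, adjusted p = 0.00405), and the follicle receptor Cxcr5 fell by 1.97 in KO cells (SE 0.38, adjusted p = 0.0265). Cxcr5 averaged 34.2 RPKM in activated WT cells and 11.6 RPKM in WT plasmablasts, without a call. Of the 16 G protein, exchange factor and GTPase genes tested, Gna12, Rac2 and Dock2 fell in KO cells, by 1.03, 1.36 and 0.91 (adjusted p = 0.0252, 0.0326 and 0.0303), and none was called in WT cells. Their WT means were lower in plasmablasts too: Gna12 at 8.29 against 14.3, Rac2 at 78.4 against 173 and Dock2 at 26.5 against 42.5 RPKM. Of 15 other lipid receptors tested, Ffar1 fell in KO cells by 1.49 (adjusted p = 0.0433). In WT cells Ffar1 had a difference of -1.66 (SE 0.37, adjusted p = 0.0644) and was not called. The S1P, oxysterol and lysophospholipid enzyme lists held no called gene in either genotype.

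Over the 10 cultured libraries other than plasmablast KO library 3, Gpr183 was most like Slfn2 (r = 0.989), Sh3kbp1 (0.984) and Cd38 (0.983), and close to S1pr3 (r = 0.953). S1pr3 was most like Pik3r4 (r = 0.973), the gene nearest to it in naive cells too, Add3 (0.968) and Ncoa3 (0.967). S1pr1 was most like Prg3 (r = 0.966), S1pr4 most like 2610002M06Rik (0.968), Gpr174 most like Hmgn3 (0.957), P2ry10 most like Zfp318 (0.966) and S1pr2 most like Traf6 (0.832). Stage and genotype are shared by these points.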

How the data were processed

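The authors deposited RPKM values (reads per kilobase of gene, scaled to library size), per the file headers, with 1 table for naive and 1 for cultured libraries. The submitters' processing notes name STAR and the build mm10. Its version, the read counter and the annotation are not given in the sources used here. Reads of a gene were estimated from whole multiples of the lowest steps of RPKM times length, within 0.2 of a whole number. Genes at 1 RPKM or more in at least 2 libraries of a table were tested on log2(RPKM + 1) with limma 3.58.1 under R 4.3.3. Each table was fitted separately, with a coefficient for every group and an intensity trend. P-values are two-sided, adjusted by Benjamini-Hochberg over all tested genes, and an adjusted p under 0.05 is a call. The code was tested on simulated data. Members and lists were chosen with earlier results of these data known. The text names all 8 receptors, the called genes of each pathway list (or, in some lists without one, those with the largest difference), and the genes most like each receptor, apart from items not reported here. Alternatives were a pseudocount of 0.1, no filter, quantile normalization, the compared groups alone, a replicate block, and libraries left out. The floor for a count of 0 is 3 reads and covers counting error only.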

Additional observations from a re-analysis of the deposited data

How the results depend on the processing

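Among 1197 repeats of single receptor differences, no called difference changed sign. Of differences that were not called, 45 repeats changed sign as rounded here, and 8 of these exceeded 0.2 in size both ways. In plasmablasts, KO minus WT ran from -1.36 to 0.76 for Gpr183 and from -1.67 to 0.29 for P2ry10, positive for both without plasmablast KO library 3. Over 17 alternatives S1pr3 kept its call for both guides (1.91 to 2.22), as did Gpr34 (2.34 to 3.14). Leaving out single libraries gave 2 to 4 receptors called for both guides. Counts of all genes called moved further, and the cause was not tested. Both guides gave 191 genes, 337 without the libraries that stand apart, and 73 to 387 leaving out single libraries. Guide 1 gave 113 genes, 60 with a pseudocount of 0.1, 180 without the libraries that stand apart, and 0 to 371 leaving out single libraries. Fitted on the compared groups alone it gave 0 genes and 0 of its 2 receptor calls, which ran from 0 to 3 leaving out single libraries. Guide 2 gave 3 genes, 0 with a pseudocount of 0.1, 55 genes and 2 receptors on the compared groups alone, 26 without the libraries that stand apart, and 0 to 35 leaving out single libraries. The WT arms gave 5 genes, 9 on the compared groups alone and 9 without the libraries that stand apart. Without the cultured libraries that stand apart, activated KO against WT gave 70 genes, plasmablast KO against WT 7, and the contrast of genotypes 3, each against 0 with all libraries. KO plasmablasts against activated cells gave 344 genes, 565 with quantile normalization, 15 on the compared groups alone, 3318 genes and 4 receptors without the libraries that stand apart, and 22 to 3033 genes and 0 to 3 receptors leaving out single libraries. WT plasmablasts against activated cells gave 176 genes, 369 with quantile normalization, 3132 genes and 3 receptors on the compared groups alone, 4565 genes and 4 receptors without the libraries that stand apart, and 0 to 3303 genes and 0 to 2 receptors leaving out single libraries. Libraries with the same replicate name were not treated as paired, since the labels do not say that they share an animal. Cultured labels carry m1, m2 or m3 across KO, WT, activated and plasmablast libraries, and the meaning of m is not given. The tests may thus leave out a pairing. Of 16 such pairs, 2 had deviations correlated over 0.1. That cannot show that pairing is absent, since the pairs include the activated libraries 3 and plasmablast KO library 3. A replicate block gave 47 genes for guide 1, 0 for guide 2 and 192 for KO plasmablasts against activated cells. The block was not run for the WT arms, nor the compared groups alone for contrasts that use every group of a table. Depth limits plasmablast KO library 3, where a receptor's value rests on 0 to 2 reads.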
